A study of Mus musculus with 9 samples.

Results

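Transcripts of the Notch pathway were followed in the trunk epidermis of newborn mice. The members were the receptors Notch1, Notch2 and Notch3, the ligands Jag1, Jag2 and Dll1, the nuclear partner Rbpj and the target genes Hes1 and Hey1. They were taken as every probe set whose platform annotation gives one of these names as its only gene symbol, which found 17 of 45037 probe sets and 9 of 18193 genes. The groups were 4 arrays from Alox12b knockout pups and 5 arrays from wildtype pups, all killed at birth, genotyped and born to heterozygous parents. The wildtype labels name the strain 129S6, and the knockout labels used here name none. The epidermis of both groups was lifted from the dermis after 30 seconds in saline at 56 °C, and each array is labelled as a biological replicate. Alox12b encodes the 12R-lipoxygenase of the skin barrier. Values are deposited log2 expression values, differences are knockout minus wildtype on that scale, and the number of arrays limits their precision.

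Notch receptors are cut at the membrane after a ligand on a neighbouring cell binds them. The freed intracellular part enters the nucleus, joins the DNA-binding protein Rbpj with a Mastermind coactivator and turns on genes of the Hes and Hey repressor families. In the epidermis Notch signalling acts mainly above the basal layer, where it promotes the exit from the cell cycle and the spinous programme and opposes the basal factor p63.

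Some arrays stood apart from the others. Wildtype array 5 was the highest of the 9 arrays for 22.2% of all genes and the lowest for 21.9%. Its means over markers of fibroblasts, melanocytes and Langerhans cells, at 5.26, 3.48 and 5.35, lay below those of every other array. Knockout array 4 had the highest means of fibroblast markers, at 9.11, and of smooth muscle and mural cell markers, at 5.64. Xist, the RNA of the inactive X chromosome, read 9.99 to 10.20 on the knockout arrays and 10.95 on wildtype array 4, against 3.23 to 4.32 on the other wildtype arrays, so that sex went with genotype except on 1 array. Markers of the labelled tissue were bright, with a mean over 7 suprabasal keratinocyte markers between 13.57 and 13.83. In such bulk samples fewer cells of a type and less RNA per cell cannot be told apart.

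Of the 9 genes, Jag1 and Hes1 were lower on every knockout array than on every wildtype array, and the groups of the other 7 overlapped. Jag1 was 2.58-fold and Hes1 2.15-fold lower by the group means. No member passed an adjusted p of 0.05 in limma over all genes, where 1.24% of genes passed, 0.731% as lower and 0.511% as higher in knockout. An unadjusted limma p under 0.05 was found for 2 of 9 members, both lower, where 10.7% of all genes were lower and 7.08% higher by that rule. A gap in that direction between the groups, with every knockout array lower, was found for 5.14% of all genes and for 2 of the 9 members. The reverse gap was found for 3.14% of all genes and 0 members, which makes 8.28% of genes in either direction. Wildtype array 5 carried much of the spread, and without it Jag1 and Hes1 passed as lower, where 0.945% of all genes did and 1.54% passed in either direction. The median difference was -0.19 over the members and 0.02 over all genes.

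**Figure D1:**
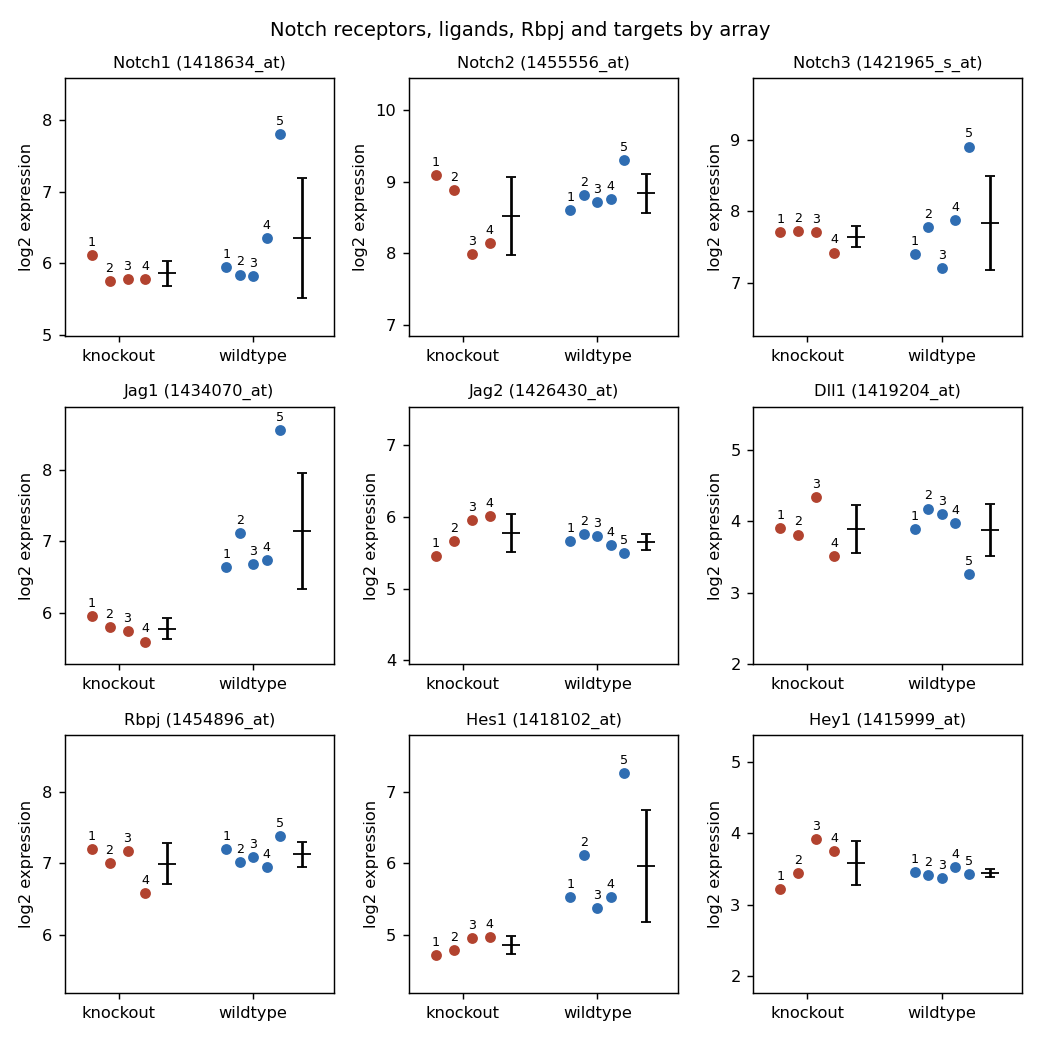
Log2 expression (y axis, a span of equal size in each panel) of the 9 genes by group, 1 point per array with its replicate number, at the brightest probe set of each gene; the black mark and bar are the group mean and SD (n = 4 knockout, n = 5 wildtype). Jag1 reads 5.60 to 5.96 on the knockout arrays and 6.63 to 8.56 on the wildtype arrays, Hes1 4.72 to 4.96 and 5.37 to 7.26, and wildtype array 5 is the highest array for both.

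Among the ligands, Jag1 encodes a Jagged ligand that acts in the epidermis and in the hair follicle. Its brightest probe set, 1434070_at, read 5.96, 5.81, 5.74 and 5.60 on knockout arrays 1 to 4. It read 6.63, 7.12, 6.68, 6.73 and 8.56 on wildtype arrays 1 to 5. The knockout arrays lay close together and below all wildtype arrays, and wildtype array 5 lay 1.44 above the next wildtype array. The means were 5.78 ± 0.15 (SD, n = 4) in knockout and 7.14 ± 0.81 (SD, n = 5) in wildtype, a difference of -1.37 with an SE of 0.35, an interval at 95% of -2.13 to -0.60 and a limma adjusted p of 0.0904. Without wildtype array 5 the difference was -1.01 with an SE of 0.14, and Jag1 fell (limma adjusted p = 0.00813). Wildtype array 4, the wildtype array with high Xist, read within the range of wildtype arrays 1 to 3, and the knockout mean was 0.96 below it on the log2 scale. With the Xist level as a covariate the difference was -0.87 with an SE of 0.51 and an interval of -2.01 to 0.27 (limma adjusted p = 0.787). Only wildtype array 4 separates Xist from genotype, so this fit has little precision.

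The other probe sets of Jag1 differed from each other. Probe set 1421106_at read between 3.16 and 3.45 on the knockout arrays and between 3.81 and 5.97 on the wildtype arrays, without overlap. Its difference was -1.07, (limma adjusted p over all probe sets = 0.201), and -0.68 without wildtype array 5, (limma adjusted p = 0.0255). Probe set 1421105_at read between 2.62 and 3.74 on all arrays, with a difference of -0.03. Both of these probe sets read at low levels on most arrays, where background may make up much of the signal. With the mean of the 3 probe sets the Jag1 difference was -0.82 (limma adjusted p = 0.184).

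The promoter of Jag1 is shown because Jag1 is the member with the largest difference, beside those of Rbpj and Hes5, which hold the core of the sequence that Rbpj is known to bind and were picked after the search for that reason. Windows of 300 bases, from 250 before to 50 after each start, came from RefSeq on build GRCm38.p6, where 7 of 9 members matched, Hes1 and Hey1 being the others. TGGGAA was searched on both strands, so that it also shows as TTCCCA, and its matches are in capitals. The Jag1 window is chr2:137116471-137116770 on the minus strand, that of Rbpj is the first of its 2 starts, chr5:53590096-53590395 on the plus strand, and that of Hes5 is chr4:154960673-154960972 on the plus strand. The windows read 5′ to 3′ as follows.
Jag1: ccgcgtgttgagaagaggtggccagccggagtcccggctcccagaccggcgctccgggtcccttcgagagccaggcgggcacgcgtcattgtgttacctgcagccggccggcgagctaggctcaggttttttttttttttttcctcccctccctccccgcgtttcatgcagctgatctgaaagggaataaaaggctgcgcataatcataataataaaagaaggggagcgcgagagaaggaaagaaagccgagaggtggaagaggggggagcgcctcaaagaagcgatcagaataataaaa
Rbpj: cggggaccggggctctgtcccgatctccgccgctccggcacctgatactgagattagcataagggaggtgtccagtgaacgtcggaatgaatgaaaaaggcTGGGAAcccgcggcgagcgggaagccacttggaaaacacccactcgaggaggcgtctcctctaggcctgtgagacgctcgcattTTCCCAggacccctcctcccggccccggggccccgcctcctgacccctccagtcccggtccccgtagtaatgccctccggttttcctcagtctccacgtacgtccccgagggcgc
Hes5: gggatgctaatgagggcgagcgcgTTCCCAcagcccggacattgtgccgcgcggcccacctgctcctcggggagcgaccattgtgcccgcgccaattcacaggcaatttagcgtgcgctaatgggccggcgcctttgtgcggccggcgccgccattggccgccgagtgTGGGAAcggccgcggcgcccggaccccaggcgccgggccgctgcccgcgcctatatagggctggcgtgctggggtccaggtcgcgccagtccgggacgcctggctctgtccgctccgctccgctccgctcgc
The Jag1 window has 0 matches. The Rbpj window has 2, at positions -149 and -65 from the start, and that of Hes5 has 2, at -226 and -82. A match was present in 25.56% of 32817 promoter windows and 2 or more in 3.79%. Of 9 member windows 2 had a match, both of Rbpj and overlapping each other. A match is a string of letters and not a measured binding site.

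Jag2 encodes the other Jagged ligand of the list. Its brighter probe set, 1426430_at, read 5.46, 5.67, 5.96 and 6.02 on the knockout arrays. On the wildtype arrays it read 5.66, 5.77, 5.73, 5.61 and 5.49. The groups overlapped, with knockout arrays 3 and 4 above all wildtype arrays and knockout array 1 below them. The difference was 0.13 with an interval of -0.17 to 0.43 and a limma adjusted p of 0.648. The dimmer probe set 1426431_at read 3.64 to 5.00 in knockout and 3.23 to 3.95 in wildtype, a difference of 0.68 (limma adjusted p over all probe sets = 0.225) and an unadjusted limma p of 0.0203. The Jagged genes thus had differences of opposite sign at their brightest probe sets, and the contrast between them was not tested.

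Dll1, a Delta-type ligand, had the single probe set 1419204_at. It read 3.90, 3.82, 4.33 and 3.52 on the knockout arrays and 3.89, 4.18, 4.10, 3.97 and 3.26 on the wildtype arrays. Its lowest value was on wildtype array 5, where Jag1 was highest. The difference was 0.01 with an interval of -0.45 to 0.48 and a limma adjusted p of 0.982, and its sign turned without wildtype array 5, to -0.14, and without knockout array 3, to -0.13. Its mean over all arrays stood at percentile 47.1 of all genes, a low level at which background may make up much of the signal.

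Among the receptors, no group of arrays separated. Notch1, the main Notch receptor gene of the epidermis, read 6.12, 5.76, 5.78 and 5.79 on the knockout arrays at probe set 1418634_at. On the wildtype arrays it read 5.95, 5.84, 5.82, 6.35 and 7.81. All arrays but wildtype arrays 4 and 5 lay within 5.76 to 6.12. The difference was -0.49 with an SE of 0.36 and a limma adjusted p of 0.490, and without wildtype array 5 it was -0.13 with an interval of -0.46 to 0.21 and a limma adjusted p of 0.714. The dimmer probe set 1418633_at gave -0.40, with its highest value, 6.48, on wildtype array 5 as well.

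Notch2 at probe set 1455556_at read 9.10, 8.88, 7.99 and 8.13 on the knockout arrays and 8.60, 8.81, 8.71, 8.75 and 9.30 on the wildtype arrays. Knockout arrays 1 and 2 lay above wildtype arrays 1 to 4, and knockout arrays 3 and 4 lay below all wildtype arrays. The difference was -0.31 with an interval of -0.84 to 0.22 and a limma adjusted p of 0.512. It was -0.20 without wildtype array 5, and with any 1 array left out it ranged from -0.50 without knockout array 1 to -0.13 without knockout array 3. At the dimmer probe set 1451889_at it was -0.03, and there knockout array 4 was the highest array, at 5.14.

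Notch3, a receptor also known from the mural cells of vessels, read 7.71, 7.73, 7.72 and 7.43 on the knockout arrays at probe set 1421965_s_at, which is of a less specific kind. On the wildtype arrays it read 7.41, 7.78, 7.21, 7.88 and 8.91. The difference was -0.19 with an interval of -0.83 to 0.44 and a limma adjusted p of 0.751, and its sign turned to 0.07 without wildtype array 5. On knockout array 4, which had the highest smooth muscle and mural cell marker mean, Notch3 had the lowest knockout value. That is 1 array, and the part of mural cells in the Notch3 values was not tested. The other probe set, 1421964_at, gave a difference of -0.07.

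**Figure D2:**
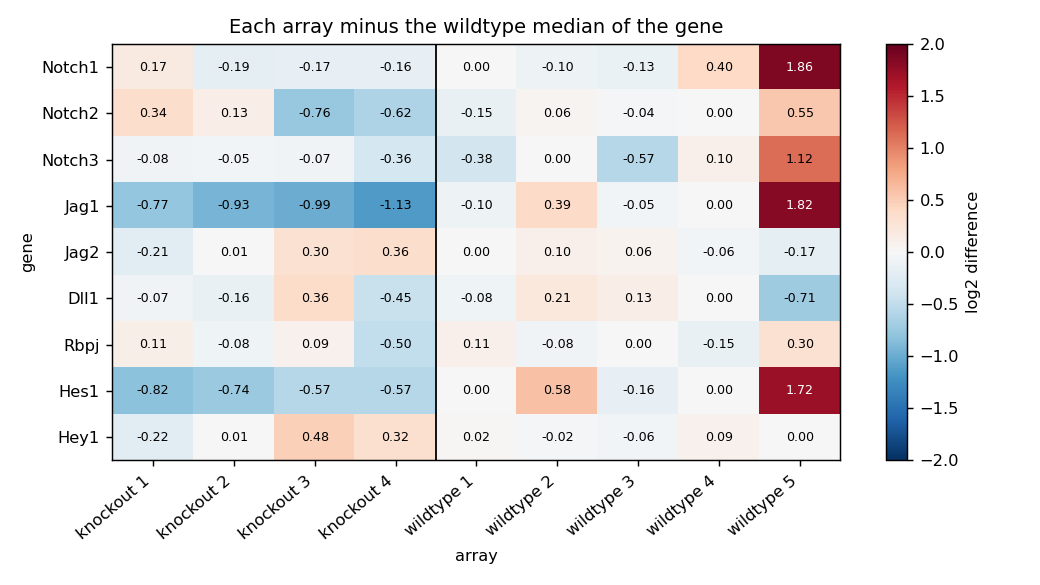
Log2 difference of each array (columns) from the wildtype median of the same gene (rows), in colour and as a number. Wildtype array 5 stands at 1.86 for Notch1, 1.12 for Notch3, 1.82 for Jag1 and 1.72 for Hes1, and the 4 knockout arrays stand at -1.13 to -0.77 for Jag1 and -0.82 to -0.57 for Hes1.

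Rbpj, which carries the DNA contact of the Notch complex and represses the same genes without it, read 7.20, 7.01, 7.18 and 6.59 on the knockout arrays at probe set 1454896_at. On the wildtype arrays it read 7.20, 7.01, 7.09, 6.94 and 7.39. Knockout array 4 was the lowest and the other knockout arrays lay within the wildtype range. The difference was -0.13 with an interval of -0.47 to 0.20 and a limma adjusted p of 0.671, and it was 0.0027 without knockout array 4. Its probe sets did not move together. Probe set 1448957_at read 6.45, 6.25, 7.17 and 6.11 in knockout and 5.72 to 6.21 in wildtype, a difference of 0.46 (limma adjusted p over all probe sets = 0.297), and 1418114_at gave -0.03.

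Among the targets, Hes1 encodes a basic helix-loop-helix repressor that Notch induces in many tissues, and in skin it keeps spinous cells immature. Its single probe set, 1418102_at, read 4.72, 4.79, 4.96 and 4.96 on knockout arrays 1 to 4. It read 5.53, 6.12, 5.37, 5.53 and 7.26 on wildtype arrays 1 to 5. The knockout arrays lay below all wildtype arrays, with a gap of 0.41 between the highest knockout and the lowest wildtype array, and wildtype array 5 was again the highest. The means were 4.86 ± 0.12 (SD, n = 4) and 5.96 ± 0.78 (SD, n = 5), a difference of -1.10 with an SE of 0.33, an interval of -1.84 to -0.37 and a limma adjusted p of 0.139. Without wildtype array 5 it fell by 0.78 with an SE of 0.17 and a limma adjusted p of 0.0494, close to the threshold. Wildtype array 4 read within the range of wildtype arrays 1 to 3, and the knockout mean was 0.67 below it on the log2 scale. With the Xist level as a covariate the difference was -0.59 with an SE of 0.48 and an interval of -1.67 to 0.48 (limma adjusted p = 0.862), again with little precision.

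Hey1, a repressor of the related Hey family, read at a low level and did not show the split of Hes1. Its probe set 1415999_at read 3.22, 3.45, 3.92 and 3.75 on the knockout arrays and 3.46, 3.41, 3.38, 3.53 and 3.44 on the wildtype arrays. The wildtype arrays lay between 3.38 and 3.53, inside the wider span of the knockout arrays, and wildtype array 5 did not stand out. The difference was 0.14 with an interval of -0.17 to 0.46 and a limma adjusted p of 0.620. Its mean over all arrays stood at percentile 41.2 of all genes, below that of Dll1, so that background may make up much of the signal. At such a level the values do not show that Hey1 was unchanged.

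**Figure D3:**
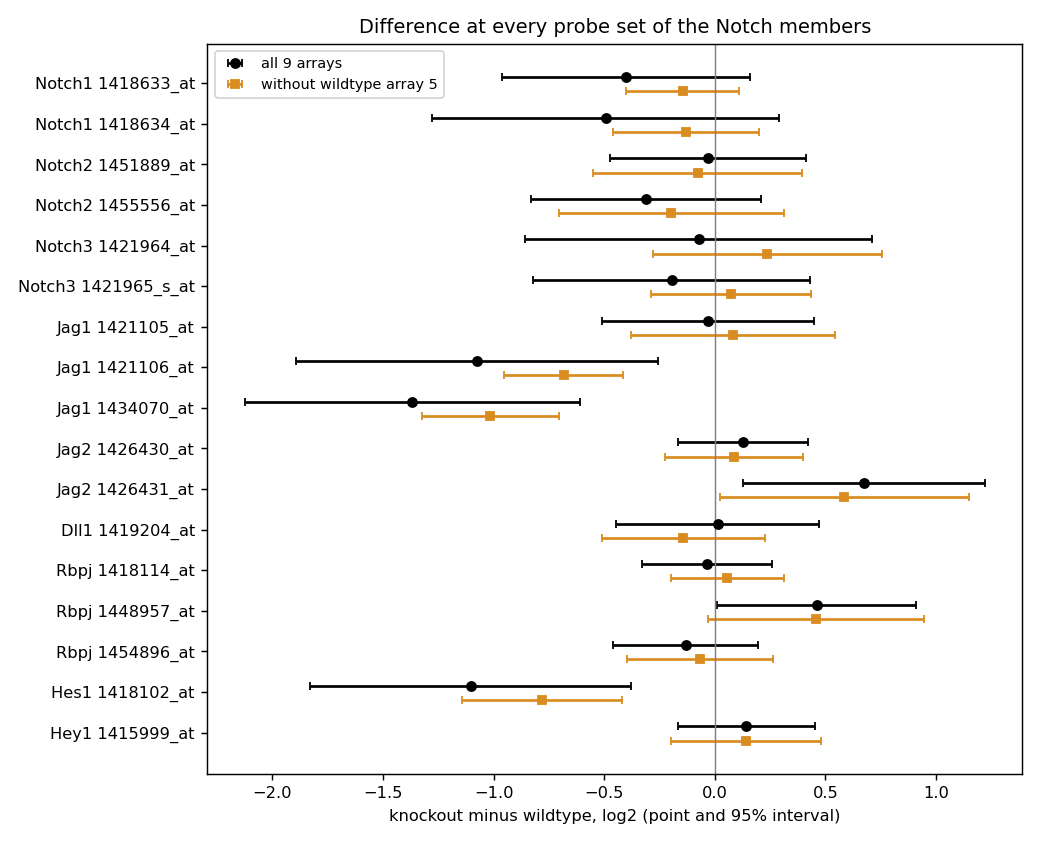
Difference between knockout and wildtype (x axis, log2) at each of the 17 probe sets of the members (y axis), with 95% intervals from limma, for all 9 arrays (circles) and without wildtype array 5 (squares). At Jag1 1434070_at the difference is -1.37 and then -1.01, at Hes1 1418102_at -1.10 and then -0.78, and the intervals of both stay below 0.

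Wildtype array 5 was the highest of the 9 arrays for 6 of the 9 members, namely Notch1, Notch2, Notch3, Jag1, Rbpj and Hes1, and for 11 of their 17 probe sets. It was the lowest for Dll1. At the level of probe sets, 0 of 17 passed an adjusted p of 0.05 in limma, where 1.11% of all probe sets did and 0.766% as lower, and 5 had an unadjusted p under 0.05, 3 lower and 2 higher. Over all probe sets 16.3% had such a p, 9.28% lower and 6.98% higher. The groups did not overlap at 3 of the 17, the same Jag1 and Hes1 probe sets as above, all lower in knockout, where 4.36% of all probe sets had such a gap. Without wildtype array 5 these 3 passed, where 1.01% of all probe sets passed as lower and 1.39% in either direction.

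The mean over 7 markers of basal keratinocytes split the arrays by group. It was 6.22 to 6.56 on the knockout arrays and 6.70 to 7.46 on the wildtype arrays, without overlap. Trp63 is one of these markers and is also given below among the genes linked to Notch. It read 8.65 on wildtype array 5, its highest array, so the split of the means rests in part on Trp63. Of the 7 markers 0 passed in limma and 4 had an unadjusted p under 0.05, all lower. Over all genes 17.8% had such a p and 10.7% were lower by it. Every knockout array was below every wildtype array for 2 of the 7 markers, Trp63 and Dst, and for 5.14% of all genes. Krt14 read 8.92 against 8.91 and Krt5 8.61 against 8.95. Wildtype array 5 was the lowest array for both, at 7.36 and 7.47, and without it the wildtype means were 9.30 and 9.32. Hair follicle markers had means of 4.90 to 5.88 in knockout and 5.47 to 6.05 in wildtype. Of these 10 markers 0 passed the threshold and 2 had an unadjusted p under 0.05, both lower, where 10.7% of all genes were lower by that rule. The suprabasal means overlapped, at 13.57 to 13.76 and 13.68 to 13.83. Of 4 adipocyte markers 2 were measured, and their means were 2.73 to 3.51 in knockout, 2.82 on wildtype array 1 and 4.31 to 6.19 on the other wildtype arrays. Adipoq, the adiponectin gene, had an unadjusted limma p of 0.0133 with a difference of -3.06, and Lep had a difference of 0.03. The part of these cell types in the Jag1 and Hes1 values was not tested. Endothelial markers were dim on all arrays, with means over 6 genes of 2.86 to 3.32, and Dll4 and Notch4, known mainly from endothelium, read 2.94 against 2.86 and 2.62 against 2.52.

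The rest of the pathway was read from a list of 56 genes, of which 51 were measured. None passed an adjusted p of 0.05 in limma, and 12 had an unadjusted p under 0.05, 9 lower and 3 higher. Over all genes 17.8% had such a p, 10.7% lower and 7.08% higher. Every knockout array was below every wildtype array for 3 of the 51 genes, Ncstn, Cir1 and Rfng, and for 5.14% of all genes. The reverse gap was found for 0 of the 51 and for 3.14% of all genes. The median difference of the 51 genes was -0.00, against 0.02 over all genes. In the receptor cleavage list, 3 of 8 measured genes had an unadjusted p under 0.05, all lower. The smallest p was that of Ncstn, the nicastrin subunit of gamma-secretase. It read 3.97, 3.89, 3.65 and 3.81 in knockout and 4.19, 4.39, 4.39, 4.20 and 4.74 in wildtype, a difference of -0.55 (limma adjusted p = 0.0831), without overlap. At its dimmer probe set, 1444532_at, the difference was -0.27 and the groups overlapped. The mean of Ncstn over all arrays stood at percentile 50.4 of all genes, so that background may make up much of its signal. Adam10, the protease that makes the first cut after ligand binding, read 7.61 against 8.38 (limma adjusted p = 0.214), and its knockout values overlapped those of wildtype.

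Among 13 measured coactivators and corepressors 3 had an unadjusted p under 0.05, all lower, where 17.8% of all genes had such a p and 10.7% were lower. Cir1, a corepressor that binds Rbpj, read 6.07, 5.93, 6.31 and 5.71 in knockout and 6.66, 6.38, 6.74, 6.44 and 6.71 in wildtype. The groups did not overlap, and the difference was -0.58 (limma adjusted p = 0.0835). In the same list Tle3, a Groucho-type corepressor that Hes proteins recruit, had a difference of -0.04 at its brightest probe set. Its probe set 1458512_at, named after its values were seen, read 4.07, 4.09, 5.08 and 3.39 in knockout and 6.90, 6.36, 6.24, 5.96 and 6.63 in wildtype. There Tle3 fell by 2.26 (limma adjusted p over all probe sets = 0.00683), while the remaining probe sets 1419654_at and 1449554_at differed by -0.06 and -0.22.

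Of 5 receptor glycosylation genes 2 had an unadjusted p under 0.05, both lower, where 17.8% of all genes had such a p and 10.7% were lower. Rfng, a fringe glycosyltransferase, read 6.93 against 7.28 without overlap, with a difference of -0.34 and a limma adjusted p of 0.158. Its dimmer probe set, 1421160_a_at, had a difference of the other sign, 0.17 (limma adjusted p over all probe sets = 0.639), and there the groups overlapped. Among 8 genes of receptor turnover, Numb, which promotes the removal of Notch from the membrane, had the smallest p. It read 8.92, 8.90, 8.58 and 8.23 in knockout and 8.08, 8.10, 8.16, 8.03 and 8.59 in wildtype, a difference of 0.46 (limma adjusted p = 0.211). The wildtype values lay between 8.03 and 8.16 except on array 5. In the ligand endocytosis list Neurl1a, a ubiquitin ligase gene of the Neuralized type, read 3.88 against 3.57 (limma adjusted p = 0.246). Dll3, among the other ligands, read 2.72 against 2.52 (limma adjusted p = 0.467). Both Neurl1a and Dll3 read at low levels, where background may make up much of the signal.

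Of the 8 other Hes and Hey family genes and Nrarp, 1 had an unadjusted p under 0.05, where 17.8% of all genes did. This was Heyl, at 3.81 against 3.47 (limma adjusted p = 0.279). The other Heyl probe sets, 1419302_at and 1438886_at, differed by -0.06 and 0.14. All 3 read at low levels, where background may make up much of the signal. Nrarp, a feedback inhibitor that Notch induces, is given after its values were seen, as it was the only one of the 8 with a mean above 5. It read 8.21, 7.70, 8.10 and 7.38 in knockout and 8.08, 8.16, 7.90, 8.72 and 9.65 in wildtype. Wildtype array 5 was again the highest, the groups overlapped, and the difference was -0.65 (limma adjusted p = 0.330), or -0.37 without that array. Hes5 and Hey2 read 2.61 against 2.87 and 2.16 against 2.02, levels at which these arrays may show background alone.

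**Figure D4:**
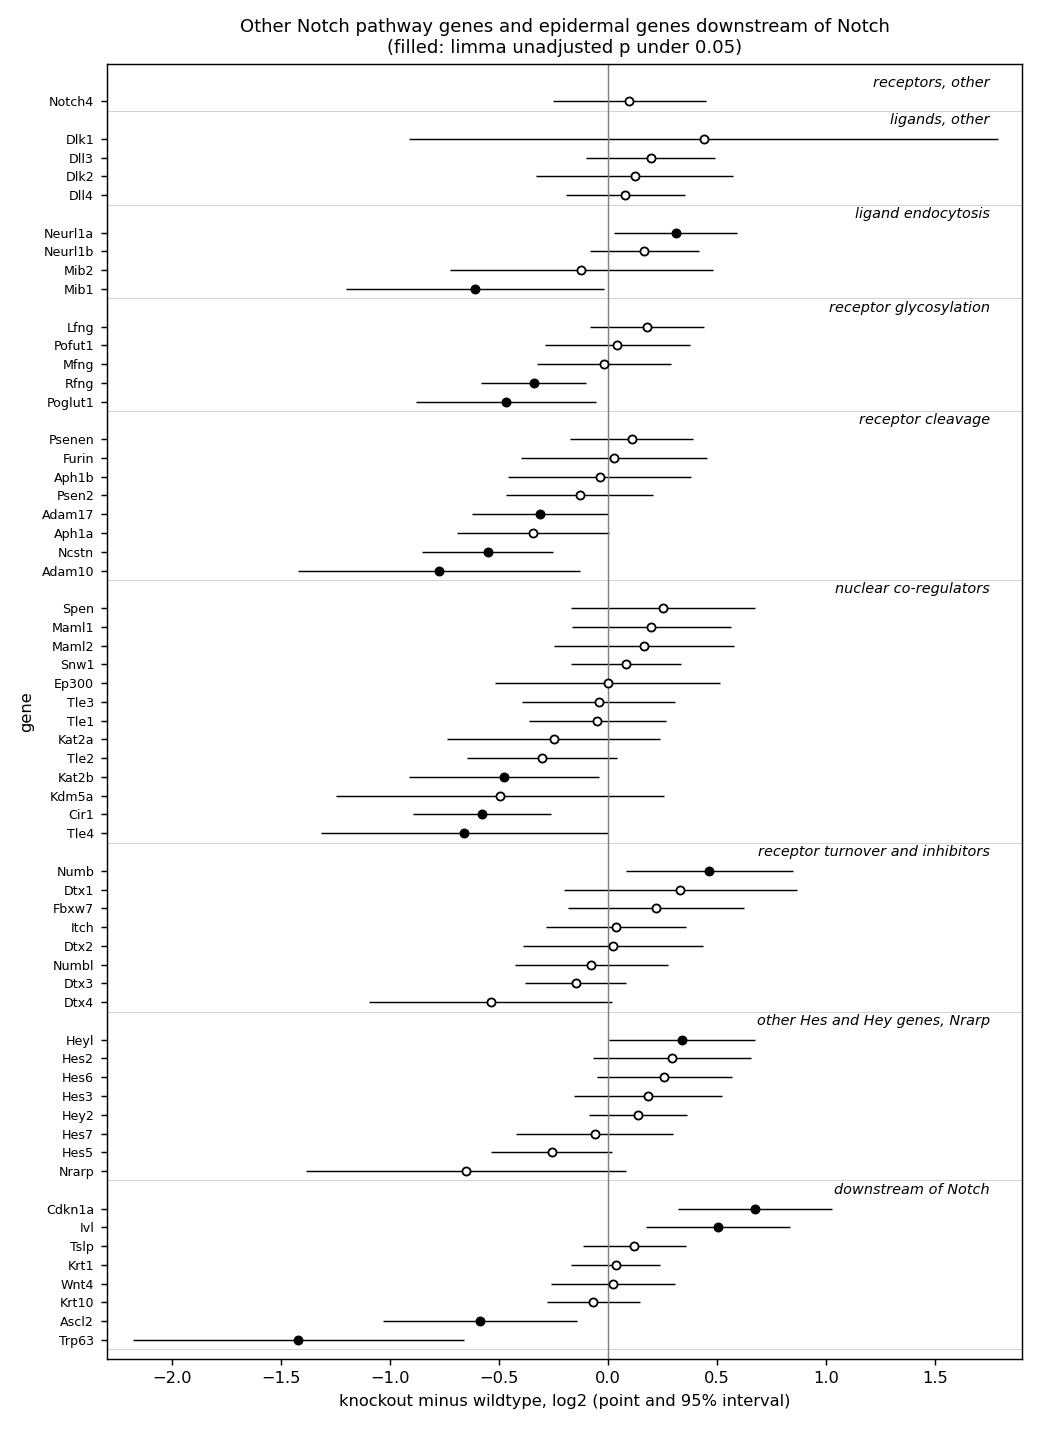
Difference between knockout and wildtype (x axis, log2) with 95% intervals from limma for the 51 measured genes of the rest of the pathway and 8 epidermal genes linked to Notch (y axis), grouped by role; filled points have an unadjusted limma p under 0.05. Trp63 is farthest to the left at -1.42 and Cdkn1a farthest to the right at 0.67, and none of the genes shown passed an adjusted p of 0.05.

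Genes linked to Notch in mouse epidermis by general knowledge had differences of both signs, and none passed the threshold. Of 9 listed genes 8 were measured, and 4 had an unadjusted limma p under 0.05, 2 higher and 2 lower, where 17.8% of all genes did, 7.08% higher and 10.7% lower. Cdkn1a, the cell cycle inhibitor p21, read 11.37, 11.52, 11.42 and 11.39 in knockout and 10.66, 10.61, 10.63, 10.55 and 11.32 in wildtype. Every knockout array was above every wildtype array, with a difference of 0.67 and a limma adjusted p of 0.0759. Without wildtype array 5 Cdkn1a rose by 0.81 (limma adjusted p = 0.00477). Trp63, the gene of the basal factor p63, read 6.67, 6.36, 6.17 and 5.30 in knockout and 7.22, 7.05, 7.32, 7.49 and 8.65 in wildtype, a difference of -1.42 (limma adjusted p = 0.0809). Its groups did not overlap, and without wildtype array 5 the difference was -1.15 (limma adjusted p = 0.0590). Of its dimmer probe sets, 1459581_at gave a difference of -0.99 without overlap. Probe sets 1451876_a_at and 1452027_a_at gave -0.22 and -0.31, and there the groups overlapped. These dimmer probe sets read at low levels, where background may make up much of the signal.

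Ivl, the gene of the envelope protein involucrin, read 12.23 against 11.72, a difference of 0.50 (limma adjusted p = 0.135), and its groups overlapped. Ascl2 read 4.27 against 4.86 at its brightest probe set, a difference of -0.59 (limma adjusted p = 0.184). Of its dimmer probe sets, 1432018_at, singled out after its values were seen, read 2.20 against 2.84 and fell by 0.63 (limma adjusted p over all probe sets = 0.0221). The other, 1422396_s_at, gave a difference of -0.02 (limma adjusted p over all probe sets = 0.959), and both read at levels that may be background alone. The spinous keratin genes Krt1 and Krt10 read 14.06 against 14.02 and 14.17 against 14.24, near the top of the scale, where an array can compress differences. Wnt4 read 8.88 against 8.86, and Tslp, a cytokine gene that rises when Notch is lost from the epidermis, read 2.17 against 2.05.

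The genes whose pattern over the 9 arrays was most like that of a member were sought for Notch1, Jag2 and Hes1 among genes with a mean of at least 6. For Notch1 they were Erlin1, Gid4 and Rreb1, with Pearson correlations of 0.97, 0.96 and 0.96 over 9 arrays, and of 0.82, 0.60 and 0.82 over 8 arrays without wildtype array 5. For Hes1 they were Nupr1, Zfp148 and Chaserr, with correlations of 0.97, 0.96 and 0.96, and 0.91, 0.88 and 0.87 without that array. For Jag2 they were Pld3, Hps1 and Klk5, with correlations of 0.92, 0.90 and 0.89, and 0.93, 0.88 and 0.86 without it. These values are descriptions picked as the highest over many genes, and the arrays share the genotype split and the sex of the samples. The Notch1 and Hes1 lists share the high value on wildtype array 5, as in Rreb1, which read 8.18 there and 6.15 to 7.18 on the other arrays, and Chaserr, which read 8.30 there and 5.07 to 6.74 on the others.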

How the data were processed

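The deposited table holds 45037 probe sets by 9 Affymetrix Mouse Genome U430 2.0 arrays. Its scale, log2, was inferred from the deposited values (1.43 to 14.46). Per the submitters' processing notes the affy software was used. The sources used here do not say how background was corrected or arrays normalized. Values were used as deposited.

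Gene symbols came from the platform annotation, which lists 34945 probe sets with 1 gene, 932 with several and 9160 not listed. Of the first, 34741 were matched to the RefSeq gene table. The brightest probe set over all arrays stood for its gene. Genotype was fitted in limma 3.58.1 (R 4.3.3) over all 18193 genes, and separately over all probe sets, with Benjamini-Hochberg adjustment and a threshold of 0.05. On simulated data for the knockout and wildtype comparison over 18193 genes, 75% of genes changed by 1 (log2) and 93% changed by 2 were recovered, with 9 unchanged genes called. The simulated noise was drawn independently for each gene and array, with no outlying array and no sex split. These shares may therefore not hold for the real arrays.

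The members and lists were chosen with earlier results of these data known. Named genes were all members, the pathway gene with the smallest p in each list, all listed epidermal genes and the most alike genes. Adam10, Dll4, Hes5, Hey2, Nrarp, Tle3 and the cell type markers named fall outside this rule and were chosen after their values were seen. Alternatives covered the probe set summary, a filter at a mean of 5, quantile normalization, median centring, trend and robust settings, array weights, the Xist level, the replicate number as a block, a threshold of 0.1 and arrays left out. The replicate numbers are shared for 1 to 4, but deviations of same-numbered arrays correlated at -0.18, -0.07, -0.18 and 0.20, so they do not pair the samples.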

Additional observations from a re-analysis of the deposited data

Results flagged for a closer look

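A single array stood far from the rest of its group in 11 of 66 groups of values checked with Dixon's test at 95%. Chance flags about 1 in 20 separate groups. These groups share the same 9 arrays, and some are probe sets of the same gene, so their count cannot be set against that rate. The value given is the gap to the nearest array as a share of the group's range. Wildtype array 5 was the highest in 8 of the 11. These were Notch1 at probe set 1418634_at (0.735) and 1418633_at (0.797), Jag1 at 1434070_at (0.748) and 1421106_at (0.849), Rbpj at 1418114_at (0.813), Numb (0.769), Cdkn1a (0.854) and Trp63 (0.724). On this array Cdkn1a read 11.32, next to the knockout values, while Trp63, at 8.65, lay farther from them than any other array. Knockout array 1 was the highest knockout array for Notch1 at 1418634_at, at 6.12 (0.925). Knockout array 4 was the lowest for Notch3 at 1421965_s_at, at 7.43 (0.920). Wildtype array 1 was the highest wildtype array for Ivl, at 12.07 (0.806).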

How the results depend on the processing

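The lower values of Jag1 and Hes1 kept their sign under all 19 alternatives. Both passed with array weights and without wildtype array 5, and Jag1 alone with the replicate number as a block, without wildtype arrays 3 and 5 together and at a threshold of 0.1. The number of members past the threshold was thus 0 in the main comparison, 2, 2, 1, 1 and 1 under these settings, and 0 to 2 with 1 array left out; for their probe sets it was 2, 3, 1, 1 and 1, and 0 to 3. Only wildtype array 5 carries replicate number 5, so in the block fit it has no partner and cannot inform the genotype difference. The block fit gave Jag1 -1.01 and Hes1 -0.78, the same differences as without wildtype array 5. The block is therefore not a check separate from leaving out that array. Of the other pathway genes 4 passed with array weights, 2 at a threshold of 0.1 and 0 with any 1 array left out. Of the epidermal genes 3 passed with array weights, 2 at a threshold of 0.1, and 1 each with the block, without wildtype arrays 3 and 5 and without the less specific probe sets, and 0 to 1 with 1 array left out. Over all genes 1644 passed with array weights, 571 at a threshold of 0.1, 145 without wildtype arrays 3 and 5, 119 with the replicate block, 9 with the Xist level as a covariate and 62 to 281 with 1 array left out, against 226. Signs turned for 6 members, each of which failed the threshold in the main comparison. Array weights gave Notch2 0.0845, Notch3 0.04, Jag2 -0.0401, Dll1 -0.15 and Hey1 -0.0039. The mean of probe sets gave Rbpj 0.0978, and the Xist level gave Rbpj 0.0312 and Dll1 -0.13. Median centring gave Dll1 -0.0293. The replicate block, like the fit without wildtype array 5, gave Notch3 0.0735 and Dll1 -0.14. Dropping wildtype arrays 3 and 5 gave Dll1 -0.12. With any 1 array left out Notch3 ranged from -0.351 to 0.0735, Dll1 from -0.14 to 0.137 and Rbpj from -0.202 to 0.0027. The cause of these shifts was not tested. The dim genes, among them Dll1, Hey1 and Hes5, are limited by signal over background.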
